A study of Mus musculus with 6 samples.

Results

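The genes described here are 39 that carry out or control the burning of fatty acids in the liver, from entry into the cell through mitochondrial and peroxisomal beta oxidation to ketone bodies. They were chosen by name, though with earlier results of these data known. Of the 39, 38 had an array probe annotated to that symbol alone, and the brightest such probe stood for each gene. A mean log2 signal of at least 5 over the 6 arrays was required for testing, which 37 of the members reached, beside 10977 genes in all among 19938 with a probe. Acsl1 was not analysed here, and Fgf21 fell below the minimum.

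The samples were livers of newborn C57Bl6/J mouse pups, taken at age 1 day or less, whose mothers ate isocaloric diets that differed in the source of their oil (6 g%). Soybean was the source for Control, flaxseed for ALA (named for alpha-linolenic acid, 31.6% by the labels), and coconut for SFA (named for saturated fatty acids, 48.51%). Sires ate chow except while mating, and the labels name no genetic change or drug. Each diet had 2 Affymetrix arrays, each made from RNA of 3 pooled livers, so the spread between single pups was not measured. The labels do not say that the duplicate pools came from different litters. The p-values measure only the spread between these arrays, which may be technical for ALA and SFA. The 2 Control arrays differed in Y-linked signal (Eif2s3y at 3.63 and 7.95), so they were not repeats of 1 pool.

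Fatty acids enter hepatocytes, are activated to acyl-CoA, and cross the inner mitochondrial membrane as carnitine esters through Cpt1a, Slc25a20 and Cpt2. A spiral of dehydrogenases, hydratases and thiolases then shortens them to acetyl-CoA, which the liver of the suckling newborn turns in large part into ketone bodies. Peroxisomes carry out a parallel pathway that begins the breakdown of very long and branched chains and hands the shortened products to mitochondria. The nuclear receptor PPAR alpha (Ppara), bound by fatty acids and paired with RXR, is known to raise the transcription of many of these genes.

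The members that differed from Control were mostly peroxisomal. On ALA, 3 of 37 members fell and 0 rose, at an adjusted p below 0.05 in limma's test over all genes, the threshold used throughout. These were the peroxisomal genes Acaa1b and Crot and the pantetheinase gene Vnn1. Over all 10977 tested genes, 7.93% were called in that comparison, 5.11% as higher and 2.82% as lower. On SFA, 5 members fell and 1 rose, where 13.8% of all tested genes were called, 7.15% as lower and 6.62% as higher. The 5 were Acaa1b, Acaa1a, Crot, Hsd17b4 and Vnn1, and the 1 that rose was the kinase gene Pdk4. The shares of members called, 3 and 6 of 37, thus lay near those of all genes. The F test over the 3 diet means called 5 members, Hsd17b4, Acaa1a, Acaa1b, Crot and Vnn1, beside 13.5% of all genes.

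At an unadjusted p below 0.05, 9 members differed on ALA (24.7% of all genes), 12 on SFA (31.9%) and 10 in the F test (34.6%). The ALA arrays lay wholly above both Control arrays for 2 members and wholly below them for 17, where 27.0% and 28.0% of all genes did so, 55.0% in all. For SFA these counts were 3 and 18, beside 28.6% and 35.7% of all genes, 64.2% in all. The sign of the difference was negative for 33 of 37 members on ALA and 27 on SFA, where the median of all tested genes was -0.01 and -0.05. These counts are not independent of each other, since the same Control arrays enter each.

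On SFA the 6 called members became 3 and 1 on dropping Control replicate 1 or 2, 0 and 1 on dropping SFA replicate 1 or 2, and 5 on dropping either ALA array. On ALA the 3 ranged from 2 to 4. Both comparisons use the same 2 Control arrays. The median log2 difference of the 37 members was -0.14 on ALA and -0.15 on SFA, beside -0.01 and -0.05 over all tested genes. These member medians became -0.07 and -0.02 without Control replicate 1, and -0.31 and -0.27 without Control replicate 2.

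**Figure D1:**
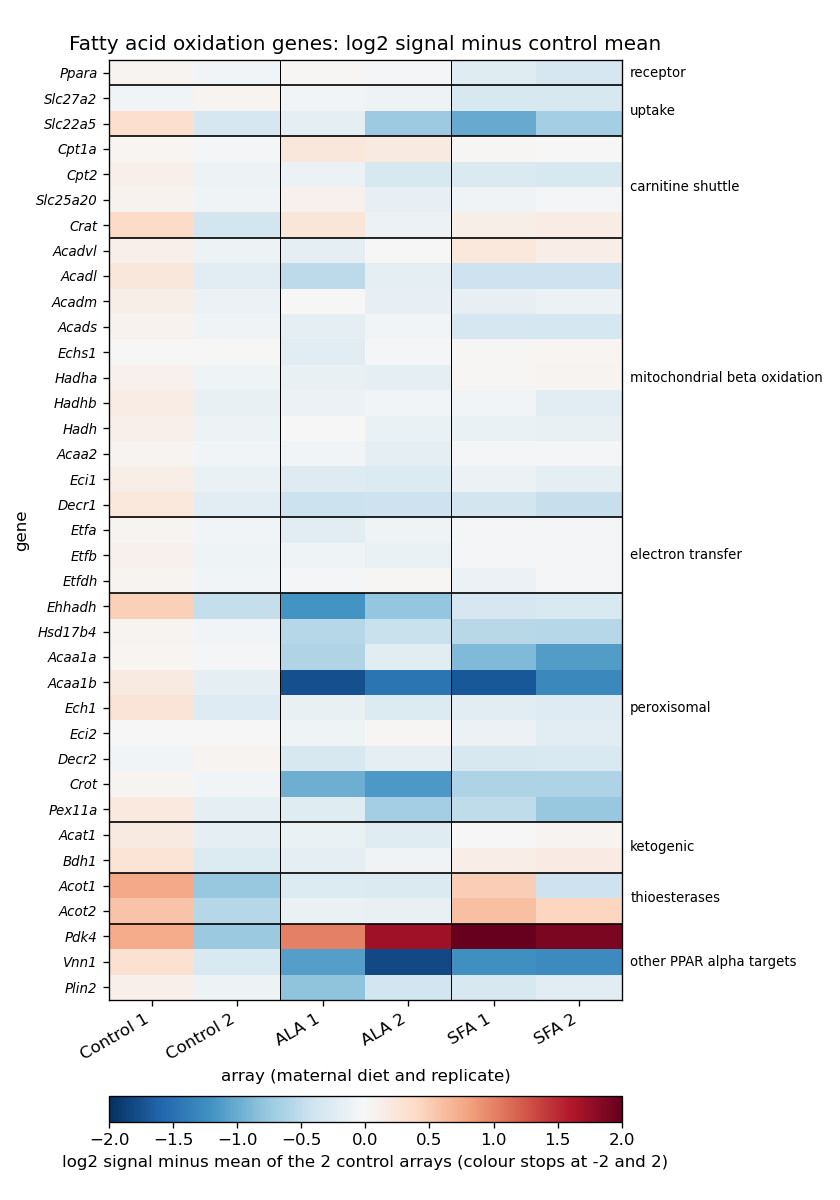
Log2 signal of the 37 tested members (rows, grouped by step) on the 6 arrays (columns), minus the mean of the 2 Control arrays. Blue is lower and red higher, and most of the peroxisomal block is blue on the 4 ALA and SFA arrays, with Acaa1b the darkest there, while most mitochondrial rows stay pale.

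Peroxisomal genes made up 4 of the 6 members called in any comparison. Of 9 tested peroxisomal genes, 2 fell and 0 rose on ALA, where 2.82% of all tested genes fell. On SFA 4 fell and 0 rose, where 7.15% of all tested genes fell. That SFA count became 1 on dropping either Control array or SFA replicate 2, and 0 on dropping SFA replicate 1. All 9 had a negative log2 difference on each diet, with a median of -0.46 on ALA and -0.56 on SFA, beside -0.01 and -0.05 over all tested genes. The 27 tested genes of a separate list of other peroxisomal genes had medians of -0.06 and -0.09, with 14 below 0 on ALA and 18 on SFA. The arrays of ALA lay wholly below those of Control for 7 of the 9, as did the arrays of SFA, beside 28.0% and 35.7% of all tested genes.

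Acaa1b, which encodes a peroxisomal 3-ketoacyl-CoA thiolase that is strongly inducible through PPAR alpha in rodents, showed the largest fall among the members. Its log2 signal (probe 10597592) was 10.51 and 10.14 on the Control arrays, 8.57 and 8.87 on ALA, and 8.63 and 9.03 on SFA. Every ALA and SFA array lay below both Control arrays, and the ALA and SFA arrays overlapped each other. Against Control, Acaa1b fell by 1.61 on ALA on the log2 scale, a 3.05-fold difference (SE 0.20, adjusted p = 0.00754), and fell by 1.50 on SFA (SE 0.20, adjusted p = 0.00736). The ALA call held in all 17 alternatives run, with adjusted p up to 0.0408, and the SFA call in 16, the exception being the fit without SFA replicate 1 (adjusted p = 0.0511).

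Acaa1a encodes the companion thiolase of the same peroxisomal step, and the gene lies near Acaa1b on chromosome 9. Its log2 signal was 8.53 and 8.44 on Control, 7.89 and 8.27 on ALA, and 7.60 and 7.37 on SFA. The 3 diets did not overlap, with ALA between the others. On SFA it fell by 1.00 (SE 0.17, adjusted p = 0.0132), and on ALA it was at -0.41 and did not pass (SE 0.17, adjusted p = 0.187). Dropping Control replicate 1 or 2, or SFA replicate 1 or 2, ended the SFA call (adjusted p = 0.0584, 0.0645, 0.054 and 0.0813). The difference between ALA and SFA was 0.60, with a 95% interval from 0.21 to 0.99, and did not pass over all genes (adjusted p = 0.108). Whether the probes of these related genes cross-hybridise was not tested.

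Crot, carnitine octanoyltransferase, turns the medium-chain acyl-CoA left by peroxisomes into carnitine esters that can move to mitochondria. Its log2 signal was 11.45 and 11.34 on Control, 10.42 and 10.24 on ALA, and 10.77 and 10.77 on SFA. The 3 groups of arrays did not overlap, and ALA was the lowest. Crot fell by 1.06 on ALA (SE 0.13, adjusted p = 0.00672) and fell by 0.62 on SFA (SE 0.13, adjusted p = 0.0244). The ALA call held in all 17 alternatives run, with adjusted p up to 0.0355. Dropping Control replicate 1 or 2, or SFA replicate 1 or 2, ended the SFA call (adjusted p = 0.0951, 0.0833, 0.109 and 0.109). ALA minus SFA was -0.44, with a 95% interval from -0.74 to -0.14 and an adjusted p of 0.116.

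Hsd17b4 encodes D-bifunctional protein, which performs the hydration and dehydrogenation steps for branched and very long chains. Its log2 signal was 10.27 and 10.17 on Control, 9.65 and 9.77 on ALA, and 9.67 and 9.65 on SFA. Both diets lay below Control with no overlap. Hsd17b4 fell by 0.56 on SFA (SE 0.12, adjusted p = 0.0303), while on ALA it was at -0.51 and narrowly missed the threshold (SE 0.12, adjusted p = 0.0511). On ALA it passed under some alternatives, among them 75th percentile centring (adjusted p = 0.0483) and a signal minimum of 6 (adjusted p = 0.0322). Dropping Control replicate 1 or 2, or SFA replicate 1 or 2, ended the SFA call (adjusted p = 0.112, 0.0956, 0.12 and 0.131), as did testing with no signal minimum (0.0547).

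The promoters of 3 of these peroxisomal genes are shown so that their letters can be set beside that of Pdk4, the member that rose. Each is the 250 bases before a start annotated in RefSeq's GRCm38.p6 table, 5′ to 3′ on the gene's strand. The Acaa1a window lies inside that gene's annotated span, which begins at 119341028, whereas those of Acaa1b, Crot and Pdk4 border theirs. Capitals mark CCAAT boxes, on either strand (CCAAT or ATTGG), and GC boxes (GGGCGG, either strand). Acaa1b lies at chr9:119157094-119157343 on the minus strand, Acaa1a at chr9:119341044-119341293 on the plus strand, Crot at chr5:8997147-8997396 on the minus strand, and Pdk4 at chr6:5496279-5496528 on the minus strand.
Acaa1b: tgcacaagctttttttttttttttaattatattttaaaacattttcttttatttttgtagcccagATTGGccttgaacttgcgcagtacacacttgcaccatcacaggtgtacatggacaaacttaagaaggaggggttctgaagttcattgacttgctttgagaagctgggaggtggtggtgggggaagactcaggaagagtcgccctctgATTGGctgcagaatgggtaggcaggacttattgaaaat
Acaa1a: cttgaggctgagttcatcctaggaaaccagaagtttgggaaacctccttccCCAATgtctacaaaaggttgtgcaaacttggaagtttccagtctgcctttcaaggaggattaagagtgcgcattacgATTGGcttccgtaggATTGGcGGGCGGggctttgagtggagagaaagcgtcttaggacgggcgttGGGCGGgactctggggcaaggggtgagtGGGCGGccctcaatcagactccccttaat
Crot: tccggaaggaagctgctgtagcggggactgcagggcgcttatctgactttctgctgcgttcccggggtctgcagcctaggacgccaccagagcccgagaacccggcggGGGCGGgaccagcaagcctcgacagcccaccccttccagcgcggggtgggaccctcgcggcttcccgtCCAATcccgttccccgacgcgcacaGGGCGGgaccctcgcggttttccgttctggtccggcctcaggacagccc
Pdk4: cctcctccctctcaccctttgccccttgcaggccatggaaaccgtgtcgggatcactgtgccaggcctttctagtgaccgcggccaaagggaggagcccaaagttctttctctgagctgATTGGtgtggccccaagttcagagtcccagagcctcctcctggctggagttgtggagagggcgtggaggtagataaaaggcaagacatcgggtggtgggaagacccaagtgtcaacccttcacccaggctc

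Acaa1a held 3 CCAAT and 3 GC boxes and Crot 1 and 2, while Acaa1b held 2 CCAAT boxes and Pdk4 1, with 0 GC boxes in either. The windows of the thiolase genes thus differed in these letters although their products perform the same reaction. Only the Acaa1a window lies inside its gene, so like regions were not compared. The direct repeat that PPAR alpha and RXR bind (DR1, copies of AGGTCA a single base apart), searched on both strands, was in 0 of the 33 members with a promoter in the table and in 0.0335% of all 32851 promoter windows of this length. The single element AGGTCA, which any such repeat also contains, was in 6 of the 33 (Acadm, Acadvl, Cpt1a, Echs1, Plin2 and Slc27a2) and in 14% of all windows. It was in 0 of the 8 peroxisomal members with a window. CCAAT was in 15 of the 33 members and 33.8% of all windows, and GGGCGG in 22 of the 33 and 32.7% of all. In each of these searches a member counted if any of its windows held the letters, while the other share is over single windows. A gene with several windows would have more openings for a match, so these shares are not like for like. These matches describe letters only, and this short window leaves out distal sites.

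The other 5 peroxisomal members did not pass on either diet. Ehhadh, the L-bifunctional protein of the inducible peroxisomal pathway, had a log2 signal of 11.18 and 10.22 on Control, 9.51 and 9.93 on ALA, and 10.36 and 10.39 on SFA. The Control arrays differed by 0.96, and both ALA arrays lay below both of them. It was at -0.98 on ALA (SE 0.30, adjusted p = 0.0968) and -0.32 on SFA (SE 0.30, adjusted p = 0.504), and without Control replicate 2 the ALA difference was -1.46 and passed (adjusted p = 0.0355). Pex11a, which acts in peroxisome division, was at -0.46 on ALA and -0.63 on SFA (adjusted p = 0.218 and 0.0828), and its SFA difference passed with the replicate number as a block (adjusted p = 0.0345). Decr2, the peroxisomal dienoyl-CoA reductase, was at -0.25 and -0.31. The isomerases Ech1 and Eci2, which are found in peroxisomes and mitochondria, were between -0.24 and -0.02.

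**Figure D2:**
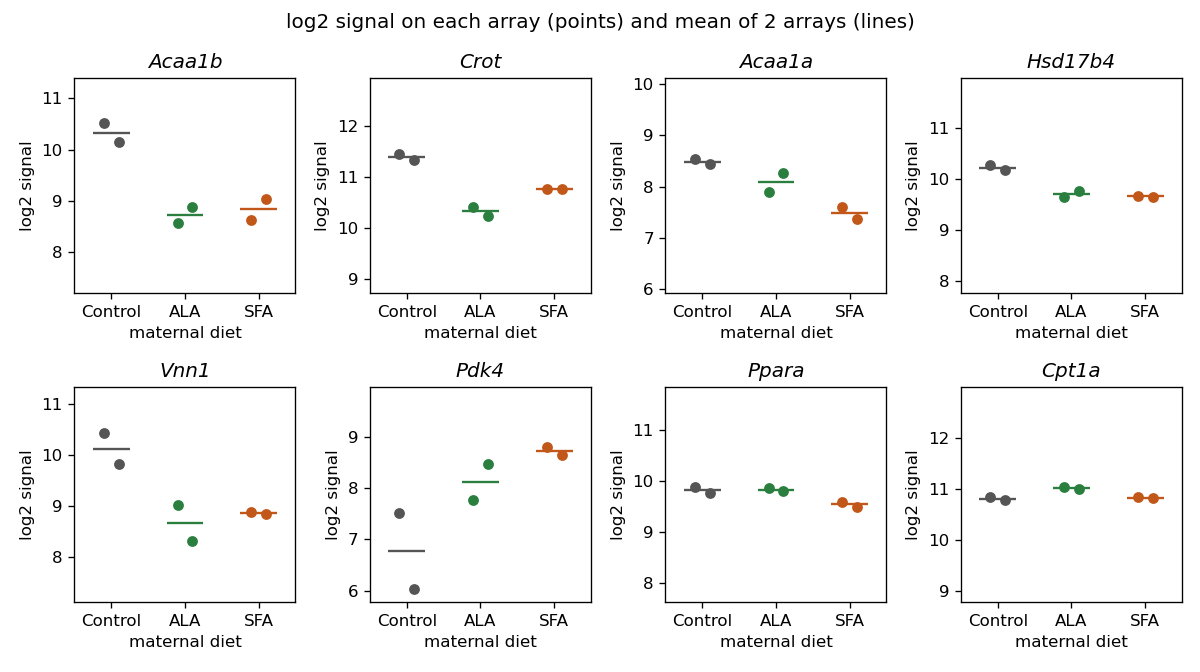
Log2 signal (vertical axes, all spanning the same range) of 8 members on each array, as points, by maternal diet, with the mean of 2 arrays as a line. Acaa1b, Crot, Hsd17b4 and Vnn1 lie lower on ALA and SFA than on Control, Pdk4 lies higher, and Ppara and Cpt1a stay within a narrow band.

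The mitochondrial pathway did not show a called change. In simulated data, 8.4% of changes of 0.58 on the log2 scale were called, so 0 calls do not show that nothing changed. Of 18 genes of the carnitine shuttle, beta oxidation and electron transfer, limma called 0 on ALA and 0 on SFA, and the same holds in every alternative run. Of all tested genes, 7.93% were called on ALA and 13.8% on SFA. At an unadjusted p below 0.05, 1 of the 18 was lower on ALA and 2 on SFA, where 24.7% and 31.9% of all tested genes differed. The median difference of the 18 was -0.11 on ALA and -0.06 on SFA. The lowest and highest differences were -0.42 and 0.20 on ALA and -0.42 and 0.16 on SFA.

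Cpt1a, the outer-membrane transferase that sets the pace of mitochondrial entry, had a log2 signal of 10.85 and 10.78 on Control, 11.04 and 11.00 on ALA, and 10.84 and 10.83 on SFA. Its ALA arrays lay just above the others, which overlapped. Cpt1a was at 0.20 on ALA (95% interval -0.08 to 0.47, adjusted p = 0.351) and 0.02 on SFA (95% interval -0.26 to 0.29, adjusted p = 0.936). Cpt2, the inner-membrane transferase, was at -0.22 and -0.31 and lay below Control with no overlap on each diet, without passing (adjusted p = 0.376 and 0.169). The carnitine-acylcarnitine carrier gene Slc25a20 was at -0.04 on each diet. Crat, which makes acetylcarnitine, was at 0.06 and 0.14, with Control arrays that differed by 0.75.

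The 11 genes of the mitochondrial spiral lay between -0.42 and -0.07 on ALA and between -0.42 and 0.16 on SFA. Decr1, the dienoyl-CoA reductase needed for polyunsaturated chains such as alpha-linolenic acid, had a log2 signal of 9.94 and 9.53 on Control, 9.31 and 9.32 on ALA, and 9.37 and 9.28 on SFA. Both diets lay below Control, by 0.42 and 0.41 in the means, but neither passed (adjusted p = 0.158 and 0.13). Acadl, the long-chain acyl-CoA dehydrogenase gene, was at -0.36 and -0.42, and Acads, which acts on short chains, at -0.12 and -0.35. None of these passed (adjusted p from 0.111 to 0.624). Acadm, the medium-chain dehydrogenase gene, was at -0.08 and -0.15. Acadvl, which acts on very long chains at the inner membrane, was at -0.11 and 0.16. Hadha and Hadhb, the subunits of the trifunctional protein, were at -0.17 and -0.09 on ALA and 0.04 and -0.13 on SFA. A further probe of Hadhb ran from 9.40 to 9.73 over the arrays, where the probe used ran from 9.51 to 9.86. The electron transfer genes Etfa, Etfb and Etfdh, which pass electrons from the dehydrogenases to ubiquinone, lay between -0.14 and 0.01 on ALA and between -0.07 and -0.02 on SFA.

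Ketogenesis was represented by Acat1, the mitochondrial acetoacetyl-CoA thiolase, and Bdh1, which interconverts acetoacetate and beta-hydroxybutyrate. Bdh1 had a log2 signal of 10.25 and 9.71 on Control, 9.80 and 9.91 on ALA, and 10.12 and 10.15 on SFA. The Control arrays spanned all the others. Bdh1 was at -0.12 on ALA and 0.15 on SFA, and Acat1 at -0.19 and 0.03, none of which passed (adjusted p from 0.504 to 0.921). For Bdh1 the 95% interval ran from -0.56 to 0.32 on ALA and from -0.29 to 0.59 on SFA.

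**Figure D3:**
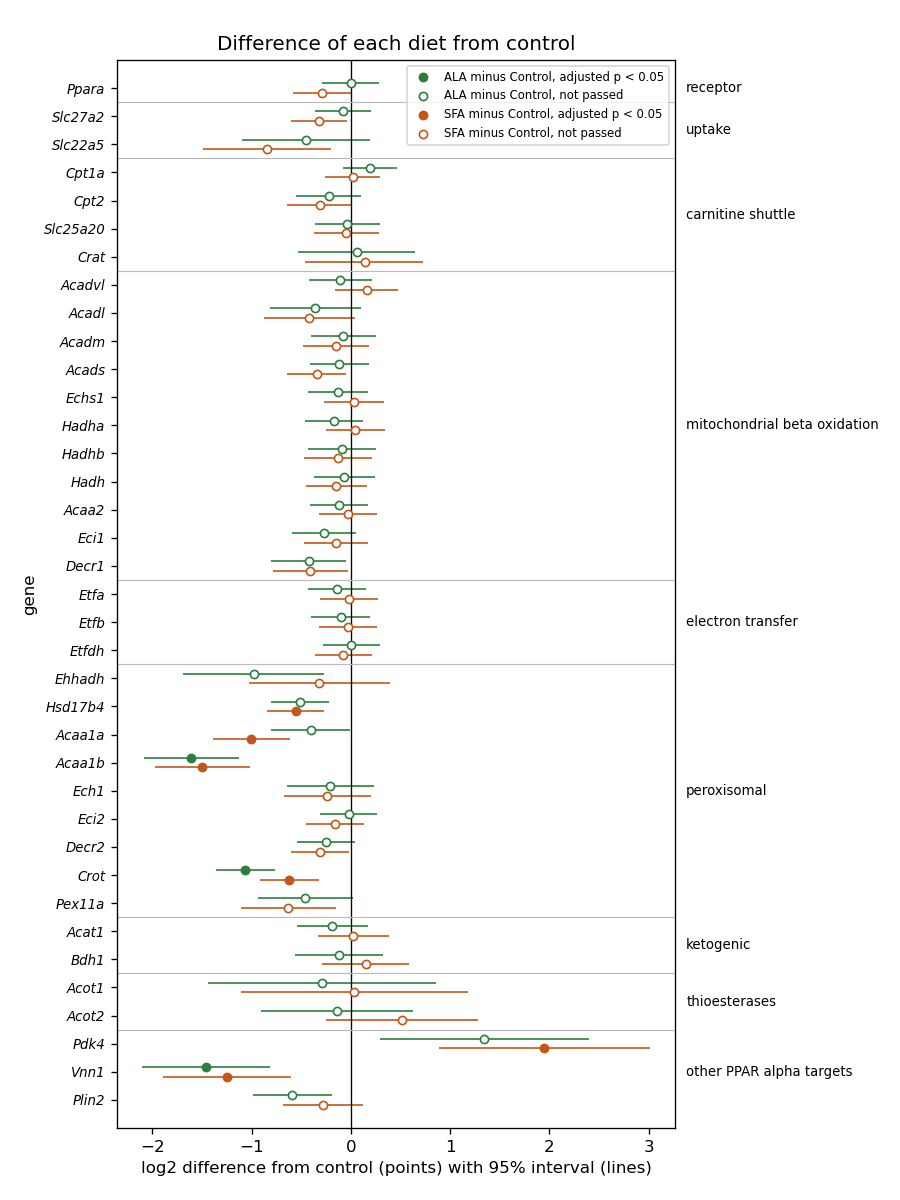
Log2 difference from Control of each tested member on ALA (green) and SFA (orange), with 95% intervals as lines. Filled points passed at an adjusted p below 0.05: Acaa1b, Crot and Vnn1 on ALA, and Hsd17b4, Acaa1a, Acaa1b, Crot, Vnn1 and Pdk4 on SFA.

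The receptor gene itself, Ppara, had a log2 signal of 9.89 and 9.77 on Control, 9.86 and 9.80 on ALA, and 9.59 and 9.50 on SFA. The SFA arrays lay below the other 4, and ALA and Control overlapped. Ppara was at 0.00 on ALA (95% interval -0.29 to 0.28) and -0.29 on SFA (95% interval -0.58 to 0.00, adjusted p = 0.157). Among the uptake genes, Slc27a2, a fatty acid transporter and very long-chain acyl-CoA synthetase, was at -0.08 and -0.32, and its SFA difference passed when the variance was allowed to follow the signal (adjusted p = 0.0341). Slc22a5, the plasma membrane carnitine transporter, was at -0.45 and -0.85 (adjusted p = 0.361 and 0.0846).

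Other genes known to respond to PPAR alpha moved in opposite directions. Vnn1, a pantetheinase that releases the coenzyme A precursor pantothenate, had a log2 signal of 10.42 and 9.82 on Control, 9.02 and 8.31 on ALA, and 8.89 and 8.85 on SFA. All 4 arrays of the test diets lay below both Control arrays. Vnn1 fell by 1.45 on ALA (SE 0.27, adjusted p = 0.0256) and fell by 1.25 on SFA (SE 0.27, adjusted p = 0.03). On ALA it no longer passed on dropping Control replicate 1 (adjusted p = 0.0984, difference -1.15), ALA replicate 2 (0.0955) or either SFA array (0.055). Dropping Control replicate 1 or 2, or SFA replicate 1 or 2, ended the SFA call (adjusted p = 0.115, 0.0544, 0.116 and 0.126).

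Pdk4 encodes the kinase that shuts off pyruvate dehydrogenase when fat is the main fuel. Its log2 signal was 7.51 and 6.04 on Control, 7.78 and 8.47 on ALA, and 8.80 and 8.65 on SFA. The 3 diets did not overlap, and the Control arrays differed by 1.47. Pdk4 rose by 1.95 on SFA (SE 0.45, adjusted p = 0.0347) and was at 1.34 on ALA (SE 0.45, adjusted p = 0.12). Without Control replicate 2 the SFA difference was 1.21 and did not pass (adjusted p = 0.0879). It also did not pass without either ALA array (0.0519), SFA replicate 1 (0.14) or SFA replicate 2 (0.125), nor with a variance trend and robust moderation (0.109). Without Control replicate 1 the ALA difference was 2.08 and passed (adjusted p = 0.0214).

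The lipid droplet coat gene Plin2 had a log2 signal of 10.78 and 10.58 on Control, 9.88 and 10.30 on ALA, and 10.36 and 10.45 on SFA. It lay below Control on each diet without passing, at -0.59 (adjusted p = 0.0789) and -0.28 (adjusted p = 0.305). The acyl-CoA thioesterases Acot1 and Acot2, cytosolic and mitochondrial enzymes that release free fatty acids, did not pass either. Acot2 was at 8.57 and 7.44 on Control, 7.88 and 7.86 on ALA, and 8.61 and 8.43 on SFA, so the Control arrays spanned both ALA arrays. Without Control replicate 1 its SFA difference was 1.08 and passed (adjusted p = 0.0227). Fgf21, the hormone gene of the fasting liver, was at 5.05 and 4.72 on Control, 4.58 and 4.61 on ALA, and 4.31 and 4.71 on SFA. It was not tested, since its mean lay below the signal minimum.

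The duplicate Control arrays stood apart from each other in this pathway. They also differed in sex-linked signal, replicates 1 and 2 having Xist at 10.67 and 8.34 and Eif2s3y at 3.63 and 7.95. Whether sex had a part in the member differences between them was not tested. Control replicate 1 was above Control replicate 2 for 33 of 37 members (89.2%), beside 52.2% of all tested genes. For ALA the share was 54.1% of members beside 56% of all genes, and for SFA 51.4% beside 57.1%. The Control arrays differed by more than 0.5 for 9 members (24.3%), beside 7.2% of all genes. These 9 were Acot1 at 1.53, Pdk4 at 1.47, Acot2 at 1.12, Ehhadh at 0.96, Crat at 0.75, Slc22a5 at 0.67, Vnn1 at 0.60, Bdh1 at 0.54 and Ech1 at 0.53. Among the called peroxisomal genes, the Control arrays differed by 0.37 for Acaa1b, 0.11 for Crot, 0.10 for Hsd17b4 and 0.08 for Acaa1a.

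**Figure D4:**
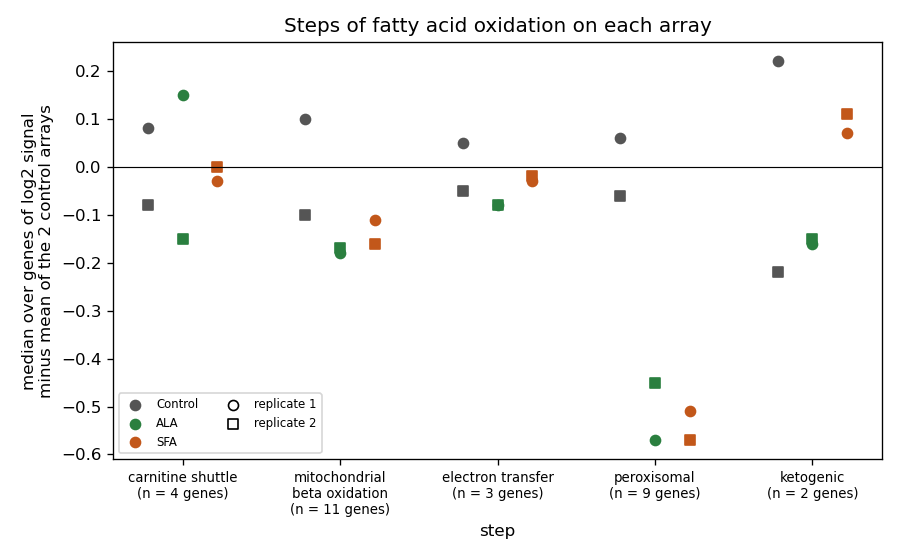
Median over the genes of each step of log2 signal minus the mean of the 2 Control arrays, for every array. The peroxisomal medians were -0.57 and -0.45 on ALA and -0.51 and -0.57 on SFA, while those of mitochondrial beta oxidation lay between -0.18 and -0.11 on these 4 arrays and at 0.10 and -0.10 on Control.

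The diets were also compared with each other. ALA minus SFA gave 0 of 37 members called by limma, beside 1.53% of all tested genes, of which 1.09% were higher and 0.437% lower. At an unadjusted p below 0.05, 2 members differed, Acaa1a and Crot, beside 22.4% of all genes. The ALA arrays lay wholly above the SFA arrays for 8 members and wholly below for 14, where 31.4% and 24.4% of all genes did so, 55.8% in all. With a variance trend and robust moderation 1 member passed, Crot (adjusted p = 0.0416). The 95% interval of ALA minus SFA for Acaa1b ran from -0.59 to 0.36, for Hsd17b4 from -0.24 to 0.34, for Vnn1 from -0.85 to 0.44 and for Pdk4 from -1.66 to 0.46. Differences of these sizes between the diets lay within the intervals.

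The rest of the pathway was followed in lists of further genes. Over all tested genes, 5.11% rose and 2.82% fell on ALA, and 6.62% rose and 7.15% fell on SFA. At an unadjusted p below 0.05 in limma, 24.7% and 31.9% differed. These shares stand beside every list count below. The lists are small and several counts lie near these shares, so the named genes describe single genes and not their lists. Of 27 other peroxisomal oxidation and peroxisome genes, 0 were called on ALA (4 at an unadjusted p below 0.05) and 2 fell on SFA. These were Scp2, whose product includes the thiolase for branched chains, at -1.02 (adjusted p = 0.028), and Acox3, a branched-chain acyl-CoA oxidase gene, at -0.69 (adjusted p = 0.0209). Of 6 other ketone body genes, 2 fell on each diet. Bdh2, a cytosolic dehydrogenase gene, was at 6.18 and 6.23 on Control and between 4.59 and 4.89 on the other arrays, where both diet means lay below the signal minimum of 5, so that it was tested only through its Control level (adjusted p = 0.00474 and 0.00369) and no size is given. Aacs, which returns acetoacetate to lipid synthesis in the cytosol, was at -0.97 and -1.65 (adjusted p = 0.0167 and 0.00302).

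Of 11 other mitochondrial acyl-CoA dehydrogenase and carnitine genes, 1 rose and 1 fell on ALA and 0 were called on SFA (2 at an unadjusted p below 0.05). Hsd17b10, a dehydrogenase gene of branched amino acid and fatty acid breakdown, was at 0.60 on ALA, and Acad8, isobutyryl-CoA dehydrogenase, at -0.67. Of 12 other acyl-CoA synthetase and carrier genes, 1 rose and 0 fell on ALA, and 1 rose and 2 fell on SFA. Among the medium-chain synthetase genes, Acsm3 was at 0.79 on ALA and 0.52 on SFA, Acsm5 at -0.90 and Acsm1 at -0.67 on SFA. Of 9 omega oxidation genes, 1 rose and 1 fell on each diet. The hydroxylase gene Cyp4a31 was at 1.14 and 1.01 (adjusted p = 0.0366 and 0.0385), and the alcohol dehydrogenase gene Adh4 at -2.05 and -1.59. The Cyp4a31 relatives Cyp4a10 (0.77 and 0.62) and Cyp4a14 (0.29 and 0.31) did not pass. Cross-hybridisation between these close paralogs was not tested.

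Among 16 other receptors and coregulators, 2 rose and 0 fell on ALA, and 2 rose and 1 fell on SFA. Ppargc1a, the coactivator of PPAR alpha, had a log2 signal of 7.07 and 7.04 on Control, 8.36 and 9.01 on ALA, and 8.02 and 8.17 on SFA. It was at 1.63 on ALA and 1.04 on SFA. Lpin1, a phosphatidate phosphatase that also coactivates PPAR alpha, was at 9.22 and 9.10 on Control, 10.90 and 10.76 on ALA, and 9.96 and 9.92 on SFA. It rose by 1.67 on ALA (adjusted p = 0.00246) and by 0.78 on SFA (adjusted p = 0.0123). The mitochondrial deacetylase gene Sirt3 was at -0.64 on SFA. Of genes called on the same arrays, Acaa1b, Crot and Vnn1 were lower on each diet, while Cyp4a31 was higher on each and Pdk4 on SFA. Any link of these signals to the coactivator genes was not tested.

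Of 13 malonyl-CoA and fuel switch genes, 1 rose on ALA and 2 on SFA. Pdp1, the phosphatase that opposes Pdk4 at pyruvate dehydrogenase, was at 0.53 and 0.94, and the related kinase gene Pdk2 at 0.60 on SFA. Of 15 lipolysis and lipid droplet genes, 3 rose and 1 fell on ALA and 1 rose on SFA. Plin5, a droplet coat gene of oxidative tissues, was at 1.12 on ALA, the triglyceride lipase gene Pnpla2 at 0.80, and Fitm1, a droplet-forming gene, at -0.87. The lipoprotein lipase gene Lpl was at 3.45 and 3.98, and Angptl4, a PPAR-responsive inhibitor of that lipase, at 0.60 and 0.24 without passing. Of 21 mitochondrial genes outside fatty acid oxidation, 1 rose on ALA, Idh3a at 0.68, and 0 were called on SFA (4 at an unadjusted p below 0.05), with medians of 0.01 and 0.14.

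Signal of cell type markers and of sex-linked genes differed between the arrays as well, and in these bulk samples fewer cells of a type and less RNA per cell cannot be told apart. Of 22 hepatocyte genes, 2 rose and 0 fell on ALA and 1 rose and 0 fell on SFA, and albumin (Alb) was between 12.58 and 12.75. Their summed linear signal was 80160 and 82940 on Control, 86780 and 84400 on ALA, and 79190 and 77870 on SFA. The 14 tested macrophage genes rose in 14 cases on ALA and 11 on SFA, and their summed signal over 15 genes was 2408 to 2734 on Control, 5089 to 6686 on ALA and 4803 to 5067 on SFA. Of 13 endothelial genes 8 rose on each diet, of 12 stellate and mesenchymal genes 9 and 11, of 18 cell cycle genes 9 and 14, of 9 fetal hepatocyte genes 5 and 7, of 7 megakaryocyte genes 4 and 4, of 7 erythroid genes 3 and 3, and of 6 granulocyte genes 1 and 2. None of these fell. Of 5 adipocyte genes on the array, none reached the signal minimum, and of 4 muscle genes 0 were called. Of 3 genes of pancreas and gut, 1 fell on each diet, Fabp2. Xist was at 3.76 and 4.24 on ALA, 9.46 and 9.51 on SFA, and 10.67 and 8.34 on Control, and the Y-linked Eif2s3y, in the same order of diets, at 7.74 and 7.80, 4.11 and 3.79, and 3.63 and 7.95. The part of cell makeup and of sex in the member differences was not tested. Of the cell cycle genes 10, and of the fetal hepatocyte genes 4, had a Control mean below the signal minimum and were tested only through the diets, so those counts of rises are partly fixed by the filter. Of the remaining 8 cell cycle genes, 1 rose on ALA and 5 on SFA, and of the remaining 5 fetal hepatocyte genes, 2 and 3. A Control mean below the minimum was also found for 2 granulocyte genes, 1 erythroid gene and 1 stellate gene, so the filter bears on those counts too. Of the remaining 4 granulocyte genes, 1 rose on ALA and 0 on SFA. Of the remaining 6 erythroid genes 2 and 2 rose, and of the remaining 11 stellate and mesenchymal genes 8 and 10. Sex and diet cannot be told apart here for ALA and SFA, whose arrays carry opposite signals. The Control arrays differ from each other in these signals.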

How the data were processed

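Liver RNA of pooled newborn mice was measured on 6 arrays. The deposited values are log2 probe signals, judged so from their range since the log base is not written, and the authors made them with RMA and Partek 6.6, per the submitters' processing notes. Background and summary settings were not given in the sources used here. No further scaling was applied.

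The table held 35556 probes, of which 21789 had 1 gene symbol, 1621 several and 12146 none; only the first were used, and 21698 were found by Entrez identifier in the RefSeq table of GRCm38.p6 with 0 changed symbols. The brightest probe by mean of the 6 arrays stood for a gene. Genes with a mean of at least 5 were fitted in limma 3.58.1 (R 4.3.3) with a mean per diet over all 6 arrays (3 residual degrees of freedom), empirical Bayes moderation and Benjamini-Hochberg adjustment over all 10977 genes, called at 0.05, two-sided. Errors are standard errors with n = 2 arrays per diet, and intervals are 95%. The procedure was tested on simulated data, where it called 8.4% of log2 changes of 0.58, 57.4% of those of 1 and 92% of those of 2. There 200 genes of any spread were changed per set, on ALA alone, so these shares need not hold for the members.

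The members, the further lists and the tests were chosen with earlier results of these data known. Per-array values are given for called members, Ppara and Cpt1a and, chosen after their values were seen, for Ehhadh, Decr1, Bdh1, Plin2, Acot2, Fgf21 and some genes of the further lists, and more members are named than the rule's 3 examples per step. Of the lists the called genes with the largest changes are named. Some genes of the pathway are not reported here. The CCAAT and GGGCGG searches were added after the data were seen. Alternatives covered scaling, the signal minimum, probe choice, variance model, array weights, the replicate number and leaving out each array. The array number limits the precision, and all labels carry the same date, so no batch could be formed.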

Additional observations from a re-analysis of the deposited data

Results flagged for a closer look

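The phosphatase and coactivator gene Lpin1 was higher on the ALA arrays than on the SFA arrays, by the test of the difference itself: ALA minus SFA was 0.89 on the log2 scale (SE 0.125, limma adjusted p = 0.0392), with both ALA arrays above both SFA arrays. No gene, Lpin1 included, was called for ALA minus SFA with the replicate block or without ALA replicate 1, SFA replicate 1 or SFA replicate 2, and sex and diet cannot be told apart between these arrays.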

How the results depend on the processing

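Of 1884 member differences recomputed under the alternatives, 1764 kept their sign and their side of the threshold, 30 lost a call, 14 gained one, and 76 changed sign with no call in either fit. No called member changed sign, and the calls lost with an array left out are named beside each gene. With only the 2 diets compared, the call of Vnn1 on ALA (adjusted p = 0.055) and of Pdk4 on SFA (adjusted p = 0.0519) was lost as well. On ALA, 5 members were called with a variance trend, with or without robust moderation, and 448 genes with only the 2 diets compared, beside 871. ALA minus SFA gave 168 genes, but 100 with 75th percentile centring, 68 with quantile normalization, 76 with cyclic loess, 32 with no filter on signal, 293 with a mean of at least 6, 308 with the trend, 421 with trend and robust moderation (1 member, which is 1 peroxisomal gene) and 11 with only the 2 diets compared. The cause of these shifts was not tested. The member median under 75th percentile centring was -0.0532 on SFA and -0.122 for ALA minus SFA, where the median of all genes moved from 0.04 to -0.07. Calls on SFA split 727 higher to 785 lower, and 1004 to 515, 962 to 528 and 952 to 585 under the 3 scalings in that order, and ALA minus SFA 120 to 48, and 42 to 58, 34 to 34 and 42 to 34.

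With an array left out, genes called ranged from 267 to 475 on ALA, 245 to 1428 on SFA, 0 to 36 for ALA minus SFA and 318 to 988 in the F test. Members called ranged from 2 to 4, 0 to 5, 0 to 0 and 2 to 4, and peroxisomal members from 0 to 4 on SFA. The member median ranged from -0.314 to -0.0667 on ALA and from -0.268 to -0.0247 on SFA.

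Same-numbered arrays did not deviate together (correlation -0.0302, -0.00402 and 0.0226 over 10977 genes). This gives no sign of pairing by number but cannot exclude it, since a pairing that moved few genes would go unseen. With the replicate block, 719, 1232 and 0 genes were called on ALA, SFA and ALA minus SFA, with 3, 7 and 0 members. The 2 arrays a diet limit the precision.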
